A study of Mus musculus with 14 samples.

Results

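Retinal ganglion cells are the output neurons of the retina, and 10 genes commonly used to mark them were followed through 14 RNA-seq libraries of mouse retina and retinal microglia. The genes were Pou4f1, Pou4f2, Pou4f3, Isl1, Nefl, Nefm, Gap43, Sncg, Rbpms and Thy1. Each was taken by its name from the deposited table, and all 10 were found among its 20902 genes. The study sorted microglia, the resident macrophages of the retina, and set them beside whole retina at e16.5 (embryonic day 16.5), P7 (the seventh day after birth) and P60. All mice were of the C57BL/6 strain. Microglia came from mice of the Cx3cr1-GFP genotype, in which microglia and other Cx3cr1-expressing cells are fluorescent, and were sorted as GFP+, CD45+, CCR2- cells with 3 libraries at each age. Each microglia library was a pool, of 1 to 2 litters at e16.5, 5 to 12 retinas at P7 and 7 to 14 retinas at P60. Whole retina came from wild-type (WT) mice, with 3 libraries of central retina at e16.5 but a single one for P7 and for P60. Microglial RNA was amplified with a low-input NuGEN kit, and for whole retina the library kit was not given in the sources used here. Tissue, sorting, genotype, RNA kit and library preparation cannot be told apart in any comparison of microglia with whole retina. Central retina is named here only for e16.5, so dissected region and age cannot be told apart between retina ages. The same holds where levels relative to retina are followed across ages. For the e16.5 retina libraries no source used here says that they came from separate animals, so that p-values measure the spread between these libraries, which may be technical.

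Ganglion cells are the first neurons born in the retina, and their axons form the optic nerve. The transcription factor Atoh7 makes progenitors competent to become ganglion cells, and Pou4f2 and Isl1 then act together to start the ganglion cell programme, with Pou4f1 and Pou4f3 acting in overlapping subsets. In the mouse, ganglion cells are overproduced and many of them die around birth and in the first postnatal week, when microglia clear dying cells. None of the markers is exclusive. Isl1 also marks bipolar cells and starburst amacrine cells, neurofilaments are found in horizontal cells, and Thy1 is a surface protein of T lymphocytes as well as of neurons. In such bulk libraries, fewer ganglion cells, less RNA per ganglion cell and more RNA from other cells cannot be told apart.

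Promoters are shown for 4 of the 10 genes, those with an entry in the RefSeq table used here (GRCm38.p6). Each is written 5′ to 3′ on the gene's own strand, which is the minus strand for all 4, and stops before the transcription start. Capitals mark matches to the E-box CAGNTG, which basic helix-loop-helix factors such as Atoh7 can bind, or to the GC box GGGCGG, on either strand.
Pou4f1, chr14:104468000-104468249: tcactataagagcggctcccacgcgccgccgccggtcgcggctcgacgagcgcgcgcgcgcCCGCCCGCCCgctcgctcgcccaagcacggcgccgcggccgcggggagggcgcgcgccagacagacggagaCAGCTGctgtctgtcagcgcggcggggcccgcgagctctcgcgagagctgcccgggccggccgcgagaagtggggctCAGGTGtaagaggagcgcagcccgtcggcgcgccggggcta
Pou4f2, chr8:78436648-78436897: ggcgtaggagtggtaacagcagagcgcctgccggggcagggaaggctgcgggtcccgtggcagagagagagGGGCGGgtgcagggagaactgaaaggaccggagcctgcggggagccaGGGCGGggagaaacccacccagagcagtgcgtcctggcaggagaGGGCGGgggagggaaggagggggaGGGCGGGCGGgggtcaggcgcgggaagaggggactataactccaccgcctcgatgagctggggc
Isl1, chr13:116309690-116309938: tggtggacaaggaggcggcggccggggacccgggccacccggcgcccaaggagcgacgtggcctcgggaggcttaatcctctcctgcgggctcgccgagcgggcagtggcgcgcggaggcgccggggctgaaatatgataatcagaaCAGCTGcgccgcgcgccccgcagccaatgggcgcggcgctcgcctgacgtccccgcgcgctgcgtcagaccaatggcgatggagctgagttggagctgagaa
Sncg, chr14:34374790-34374919: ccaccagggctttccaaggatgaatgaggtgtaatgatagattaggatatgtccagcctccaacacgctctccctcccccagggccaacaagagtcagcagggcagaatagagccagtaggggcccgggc
The Pou4f1 window holds 2 E-boxes and 2 overlapping GC boxes, the Pou4f2 window 5 GC boxes, of which the 2 nearest the start overlap, and the Isl1 window 1 E-box. Among all 32851 RefSeq promoter windows of 250 bases, 44.8% held the E-box and 32.7% the GC box. The Sncg window has 130 bases, since the part inside the annotated gene was removed, and it holds neither motif. At that length 26.4% of windows hold the E-box and 27.3% the GC box. The TATA box TATAAA was searched on both strands too and was in none of the 4 windows, against 12.4% of all windows of 250 bases. The homeodomain motif TAATTA was likewise in none, against 4.84%. A match is a description of these letters and not a binding site.

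In the GENCODE annotation of GRCm38, Pou4f2 (chr8:78433010-78436645), Sncg (chr14:34370274-34374789) and Nefl (chr14:68083863-68089095) have 1 transcript each. Pou4f1 (chr14:104461676-104467999) and Gap43 (chr16:42248442-42340651) have 2, as do Nefm (chr14:68082590-68124846) and Pou4f3 on chromosome 18. Isl1 (chr13:116298281-116309689) has 5, Thy1 (chr9:44043384-44048579) 6 and Rbpms (chr8:33782643-33929863) 15. Nefl lies inside Nefm on the opposite strand, and 1108 exon bases belong to both, of 3380 in Nefl and 5782 in Nefm. Whether the counting used strand was not given in the sources used here, so reads over those bases are uncertain for both genes. Rbpms overlaps an antisense gene, Gm26632, with the same limit.

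Counts summed to 8996298 to 17446905 in the microglia libraries and to 20469100 to 24361772 in whole retina. Levels are given as CPM, the counts relative to library size, scaled with TMM factors, as mean ± SD over 3 libraries where a mean is given, and levels of different genes are set side by side only in FPKM, which divides by length. The 8 microglial markers, among them Csf1r, Cx3cr1, P2ry12 and Tmem119, summed to 7484 to 16002 CPM in sorted microglia and to 56.4 to 73.8 CPM in whole retina. The 10 ganglion cell genes summed to 2179.7 to 2316 CPM in e16.5 retina, 780.3 CPM at P7 and 908.0 CPM at P60. In microglia the same sum was 133 to 286 CPM at e16.5, 51.1 to 92.8 CPM at P7 and 75.9 to 166 CPM at P60. 2 microglia libraries stand apart, the first for these genes and the second for markers of other cell types. Replicate 2 of e16.5 was the highest of the 3 for 7 of the 10 genes and had the lowest microglial marker sum of its age, 10211 CPM against 12837 and 13351. Replicate 2 of P60 had the lowest microglial sum, 7484 CPM against 13299 and 10562. It had the highest photoreceptor signal, with 4109 CPM over 8 of 8 rod markers against 1402 and 682. Of the 8 ganglion cell genes above 0 in P60 microglia, it was the highest for 2 and replicate 1 for 5. Thy1 made 152 CPM of its sum of 166 CPM over the 10 genes.

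In whole retina most ganglion cell genes were lower after birth, and Thy1 was higher. At P7, 8 of the 10 genes were at least 2-fold lower than at e16.5 and 1, Thy1, was at least 2-fold higher. With scaling by library totals alone, Nefl and Nefm of these 8 lay inside 2-fold. Of all 15035 genes with at least 1 CPM in either age, 15.1% were at least 2-fold lower and 20.8% at least 2-fold higher. The median log2 ratio of the 10 genes was -1.68, against -0.02 for all genes. At P60, 8 were again at least 2-fold lower than at e16.5, where 24.5% of 15366 genes were, and Thy1 was higher, where 26.6% were, and the median log2 ratio was -2.19 against -0.06. From P7 to P60 only Gap43 was at least 2-fold lower (12.2% of all genes) and only Thy1 at least 2-fold higher (11.7%). With a single library at P7 and at P60 these ratios carry no test, and log2 ratios were computed with 0.1 CPM added. Age and dissected region cannot be told apart in them. The 8 rod markers summed to 12.0 to 15.6 CPM in e16.5 retina, 7293 CPM at P7 and 56675 CPM at P60. The part of such other cells' RNA in these ratios was not tested.

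Of the POU-domain factors, Pou4f1, which marks a large share of mature ganglion cells, was at 142, 127 and 129 CPM in the e16.5 retina libraries, 35.5 CPM at P7 and 23.5 CPM at P60. Pou4f2, the factor that ganglion cell differentiation depends on most, was at 54.7, 51.6 and 57.2 CPM, then 9.71 and 6.80 CPM. Pou4f3, the paralogue best known from hair cells of the inner ear, was at 25.5, 25.1 and 25.3 CPM, then 6.51 and 3.44 CPM. All 3 paralogues stood below every e16.5 library at both later ages, and the drop lay mostly before P7. Their log2 ratios at P7 were -1.90, -2.48 and -1.94, and those from P7 to P60 were -0.59, -0.51 and -0.90. Isl1, a LIM-homeodomain factor shared with bipolar and starburst amacrine cells, was at 182, 209 and 176 CPM at e16.5, 109 CPM at P7 and 62.7 CPM at P60. It was the only one of the 10 genes with a ratio inside 2-fold at both steps, at -0.80 and -0.79, and outside it over the whole interval, at -1.59.

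The cytoskeletal and axonal genes differed more widely. Gap43, a growth-cone protein of extending axons, was at 569.9, 529 and 634 CPM at e16.5, 90.9 CPM at P7 and 18.1 CPM at P60. It was 6.36-fold lower at P7 and 32.0-fold lower at P60, the largest ratio among the 10 genes. Sncg, gamma-synuclein, a small soluble protein rich in ganglion cell bodies and axons, was at 343, 341 and 389 CPM, then 48.2 and 37.2 CPM. It was 9.62-fold lower at P60, and its drop lay mostly before P7. Nefl, the light neurofilament subunit, was at 719, 728 and 738 CPM at e16.5, 364 CPM at P7 and 612 CPM at P60. Nefl was thus lowest at P7, at 2.00-fold on the threshold itself, and its P60 level was 1.19-fold below that of e16.5. Nefm, the medium subunit, was at 119, 110.3 and 96.4 CPM, then 51.8 and 34.0 CPM, and did not return at P60.

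Rbpms, an RNA-binding protein that in the retina is largely restricted to ganglion cells, was at 56.1, 51.8 and 63.4 CPM at e16.5, 20.6 CPM at P7 and 15.3 CPM at P60. Its log2 ratios were -1.46 at P7 and -1.89 at P60. Thy1, a glycolipid-anchored surface protein used for decades to label ganglion cells, went the other way. It was at 10.1, 7.07 and 8.01 CPM at e16.5, 44.7 CPM at P7 and 95.3 CPM at P60, an 11.3-fold difference over the interval. No other gene of the 10 was higher at P60 than at e16.5.

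**Figure D1:**
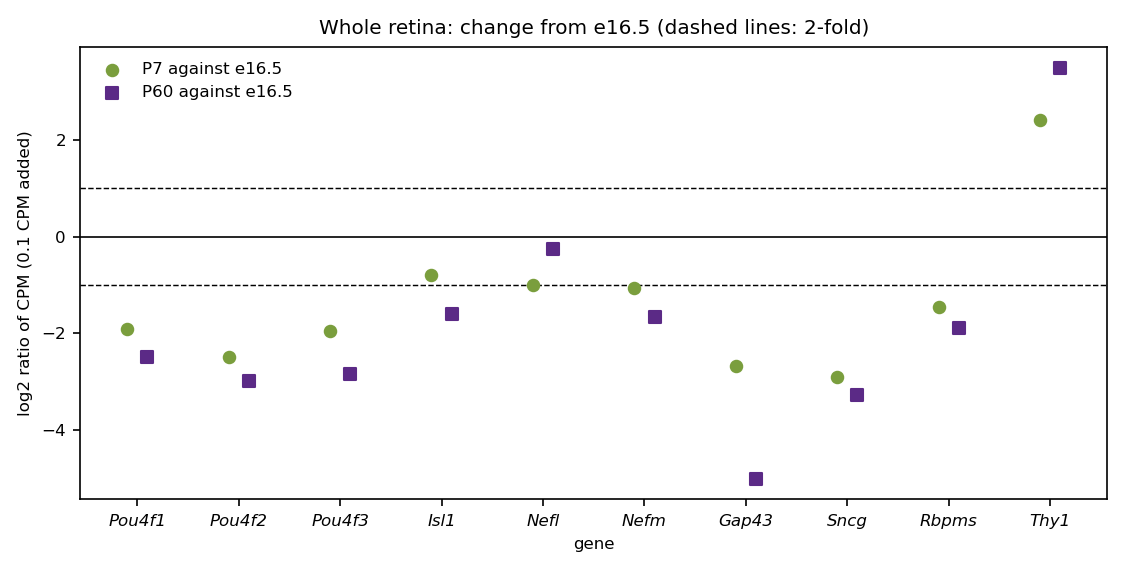
Log2 ratio of whole retina CPM at P7 (circles) and P60 (squares) to the mean of the 3 e16.5 libraries, for each gene on the horizontal axis, with dashed lines at 2-fold. Gap43 reaches -4.99 at P60, Nefl returns to -0.25, and Thy1 alone is positive, at 2.40 and 3.49.

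A fit of all 14 libraries in edgeR, in which the lone retina libraries are assumed to vary like the other groups, called Gap43 lower at P60 than at e16.5 (log2 fold change -4.91, SE 1.01, adjusted p = 0.0101) and Thy1 higher (3.59, SE 0.77, adjusted p = 0.0123). The other 8 genes did not pass there. Of all genes, 2.69% were lower and 6.43% higher in that contrast. In the same edgeR fit none of the 10 passed at P7 against e16.5, where 4 had an unadjusted p under 0.05 and 2.34% of genes passed, and none passed from P7 to P60, where 1 had an unadjusted p under 0.05 and 0.137% of genes passed.

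Per length, Sncg and Gap43 were the most abundant of the 10 in e16.5 retina, at 508 ± 39.5 and 492 ± 38.0 FPKM (SD, n = 3), and their libraries overlapped. Nefl (199 ± 3.88 FPKM), Isl1 (119 ± 6.14) and Pou4f1 (66.7 ± 5.11) followed. Pou4f1 overlapped with Rbpms (62.5 ± 14.0), and Nefm (30.1 ± 3.00), Thy1 (17.7 ± 3.46) and Pou4f2 (15.8 ± 0.78) came next, the last pair overlapping. Pou4f3 was lowest, at 10.3 ± 0.0128 FPKM. By P60 the order had turned over, with Thy1 first at 205 FPKM and Nefl second at 177 FPKM. Sncg stood at 55.7 FPKM, Isl1 at 42.1 and Gap43 at 15.0, close to Pou4f1 at 14.6. Pou4f2 and Pou4f3 were the lowest at P60, at 2.08 and 1.47 FPKM, with no replicate behind these values.

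Other genes of the ganglion cell programme were read from 5 lists in the same libraries. Of 16 transcription factors of ganglion cell fate, 14 were at least 2-fold lower in P60 than in e16.5 retina and 1 was higher, with a median log2 ratio of -2.72. Atoh7, the competence factor, went from 571 CPM to 0.425 CPM, and Sox11, a factor of newborn neurons, from 729.6 to 4.54 CPM. Dlx1, a homeobox factor, went from 19.4 to 0.170 CPM. Of 16 further ganglion cell markers, 5 were lower and 5 higher. Tubb3, the neuronal tubulin, went from 1777 to 102 CPM, and Stmn2, a microtubule regulator of growing axons, from 353 to 24.0 CPM. Nefh, the heavy neurofilament subunit of mature large axons, went from 3.46 to 106 CPM, and Chrna6, a nicotinic receptor subunit, from 10.8 to 143 CPM. Cartpt, a neuropeptide precursor of direction-selective ganglion cells, went from 3.21 to 58.7 CPM.

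Of 21 genes of axon growth and guidance, 13 were at least 2-fold lower at P60 and 3 higher. Dcx, a microtubule protein of migrating neurons, went from 136 to 3.53 CPM, and Cntn2, an axonal adhesion molecule, from 242 to 11.7 CPM. Of 13 measured neurotrophin receptor and cell death genes with at least 1 CPM, 6 were lower and 2 higher. Ntrk3, the receptor for neurotrophin 3, went from 6.30 to 39.8 CPM. Of 5 relatives of the neurofilaments and synucleins, 3 were higher and 2 lower. Sncb, beta-synuclein, went from 1.43 to 53.9 CPM, whereas Ina, alpha-internexin, went from 320.0 to 49.5 CPM. Nefh is in 2 of these lists. The medians of the further markers, axon, neurotrophin and relatives lists were -0.16, -1.24, -0.64 and 1.30 on the log2 scale, against -0.06 for all genes, and the shares of all genes past 2-fold are those given above. At P7 10 of 15 fate factors were already at least 2-fold lower and none higher, and of 15 further markers 7 were lower and 4 higher. Of the axon genes 4 were lower and 4 higher at P7, of the neurotrophin and death genes 3 lower and 1 higher, and of the relatives 3 lower and 2 higher.

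Sorted microglia held RNA of these genes at e16.5, mostly far below the retina level. In edgeR, 7 of the 10 were lower in microglia than in whole retina at e16.5 and none was higher. Of 16140 genes tested, 30.1% were lower and 33.1% higher, 63.2% in all. Without microglia replicate 2, 9 of the 10 were lower. The median log2 fold change of the 10 genes was -2.97, against -0.13 for all genes. The level in microglia was not a fixed share of that in retina. It ran from 0.259% for Sncg and 0.809% for Pou4f3 to 53.7% for Rbpms and 202% for Thy1.

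**Figure D2:**
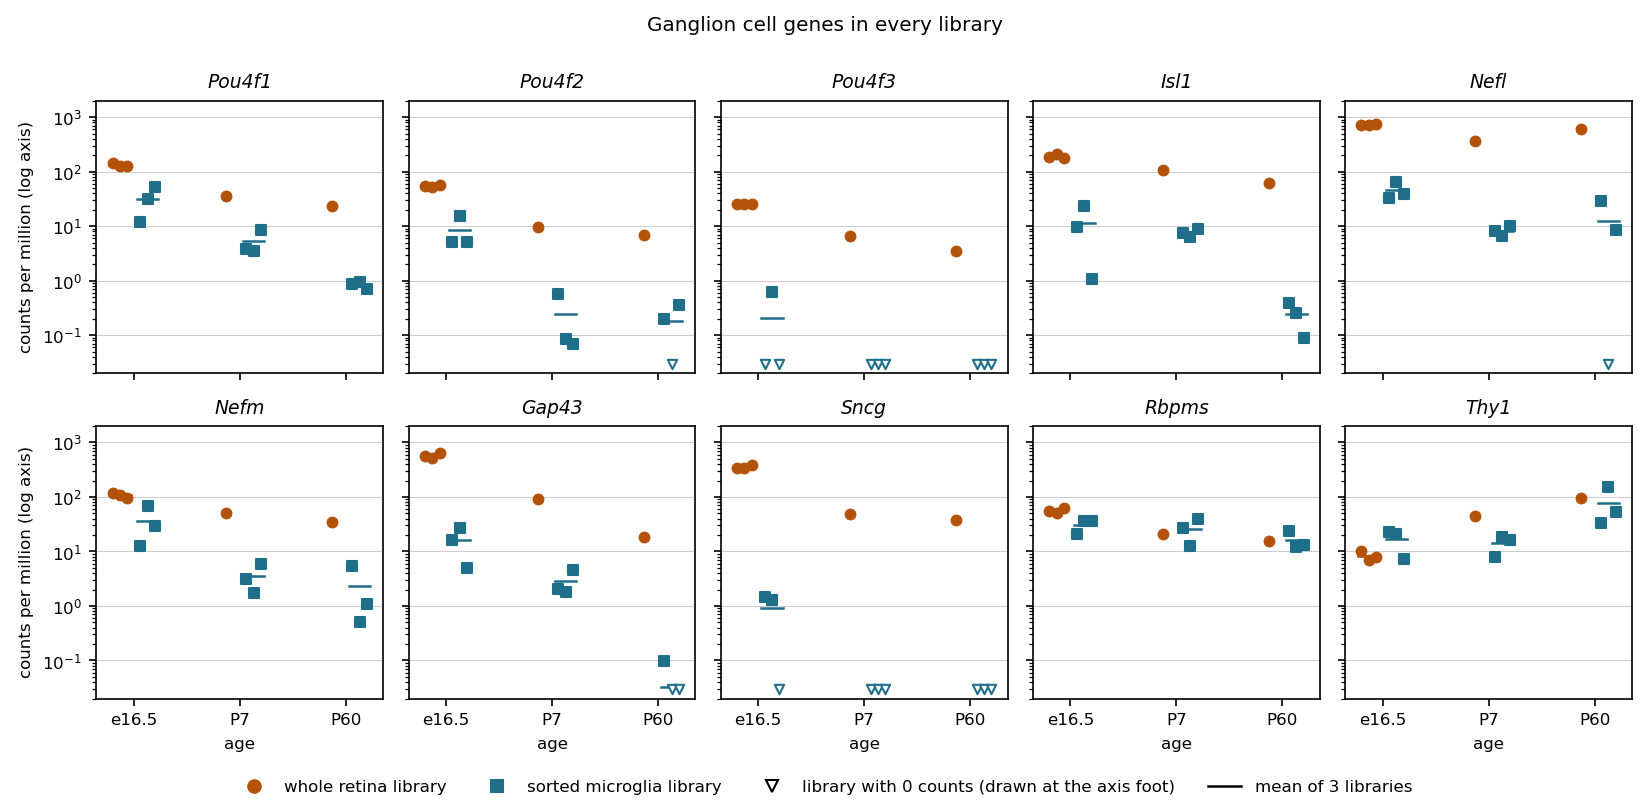
Level of each gene in every library, in CPM on a log axis, by age, with whole retina as circles, sorted microglia as squares and bars at the mean of 3 libraries; open triangles are libraries with 0 counts. Microglia lie below retina for 8 genes at P7 and P60, while Rbpms has libraries on both sides of retina at both ages and Thy1 at P60.

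The POU-domain paralogues differed. Pou4f1 was at 11.7, 31.5 and 51.9 CPM in the e16.5 microglia libraries, all below the 127 to 142 CPM of retina (log2 fold change -1.70, SE 0.49, adjusted p = 0.0192, edgeR). Pou4f2 was at 5.16, 15.5 and 5.18 CPM, also below every retina library (-2.29, SE 0.50, adjusted p = 0.00625, edgeR). Pou4f3 had 0, 8 and 0 counts in microglia, where retina had 505 to 529 (-6.55, SE 1.25, adjusted p = 0.00339, edgeR). Pou4f1, at 23.9% ± 15.1 of the retina level, thus stood well above Pou4f3, at 0.809% ± 1.40 (SD, n = 3). Isl1 was at 9.67, 23.1 and 1.08 CPM and ranged widely between replicates (-3.69, SE 0.91, adjusted p = 0.0102, edgeR).

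Among the axonal genes, Sncg had 18, 17 and 0 counts in e16.5 microglia, against 6797 to 7908 in retina (-8.26, SE 0.85, adjusted p = 0.000257, edgeR). Sncg, which with Gap43 led the 10 in retina per length, was at 1.49 ± 1.30 FPKM in microglia, where its libraries overlapped with those of Pou4f2 and Pou4f3, the latter alone having a lower mean. Gap43 was at 15.9, 27.2 and 4.98 CPM (-4.80, SE 0.61, adjusted p = 0.000618, edgeR). Nefl was at 32.6, 63.2 and 39.4 CPM (-3.65, SE 0.28, adjusted p = 7.63e-05, edgeR), with no overlap with retina for any of these. Nefm was at 12.7, 66.9 and 29.3 CPM, below the retina libraries in each, but did not pass in edgeR (-1.21, SE 0.55, adjusted p = 0.0921). It passed without microglia replicate 2, its highest library (-2.14, adjusted p = 0.00504 in edgeR). Rbpms, at 20.7, 35.9 and 35.5 CPM, did not pass either (-0.53, SE 0.28, adjusted p = 0.142, edgeR), and passed without the same library (-0.79, adjusted p = 0.0432). Scaling by library totals alone moves the median of all genes in this comparison by -0.38, and with it Nefm (-1.64, adjusted p = 0.0280, edgeR) and Rbpms (-0.94, adjusted p = 0.0147) passed as well.

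Thy1 was at 22.9, 20.9 and 7.14 CPM in e16.5 microglia and at 7.07 to 10.1 CPM in retina, with overlap (1.38, SE 0.52, adjusted p = 0.0530, edgeR). Without microglia replicate 3, the lowest, it passed as higher in microglia (1.66, adjusted p = 0.00295, edgeR). With all libraries it passed as higher in DESeq2 (1.36, adjusted p = 0.0228) and with a 5 CPM filter (1.61, adjusted p = 0.0325, edgeR). It did not pass with RLE size factors, library totals, a filter of 1 count, all 14 libraries or the replicate number as a block (adjusted p from 0.0573 to 0.158, edgeR). Per length the difference was smaller, with microglia at 115% of retina by FPKM. Of the other cell types' markers in e16.5 microglia, 9 of 9 retinal progenitor genes were detected, summing to 417 to 458 CPM against 6293 to 6793 CPM in retina. The 6 starburst amacrine markers summed to 9.13 to 35.8 CPM in e16.5 microglia, against 190.3 to 209 CPM in retina. Most of the microglial sum was Megf10, at 17.6, 6.13 and 32.4 CPM. Most of the retina sum was Sox2, at 151, 158 and 146 CPM, which is also in the progenitor list. Of the starburst markers, Chat and Slc18a3 were at 0 counts in every microglia library. Both were also low in e16.5 retina, at 0.0168 and 0.381 CPM. The 9 amacrine and horizontal cell markers summed to 167 to 296 CPM in e16.5 microglia and 131 to 171 CPM in retina, with overlap. Sums of rod, T lymphocyte, and endothelial and pericyte markers were higher in microglia, and those of cone, bipolar and Mueller glia markers lower. Not every marker of these lists followed its sum. Pecam1 made most of the endothelial and pericyte sum, at 78.9 CPM against 3.35 CPM in retina. Cdh5, Rgs5 and Abcc9 were also higher. Cldn5 (0.537 against 10.9 CPM), Pdgfrb (0.263 against 11.6 CPM), Cspg4 and Kcnj8 were lower. The part of other cells' RNA in these levels was not tested.

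**Figure D3:**
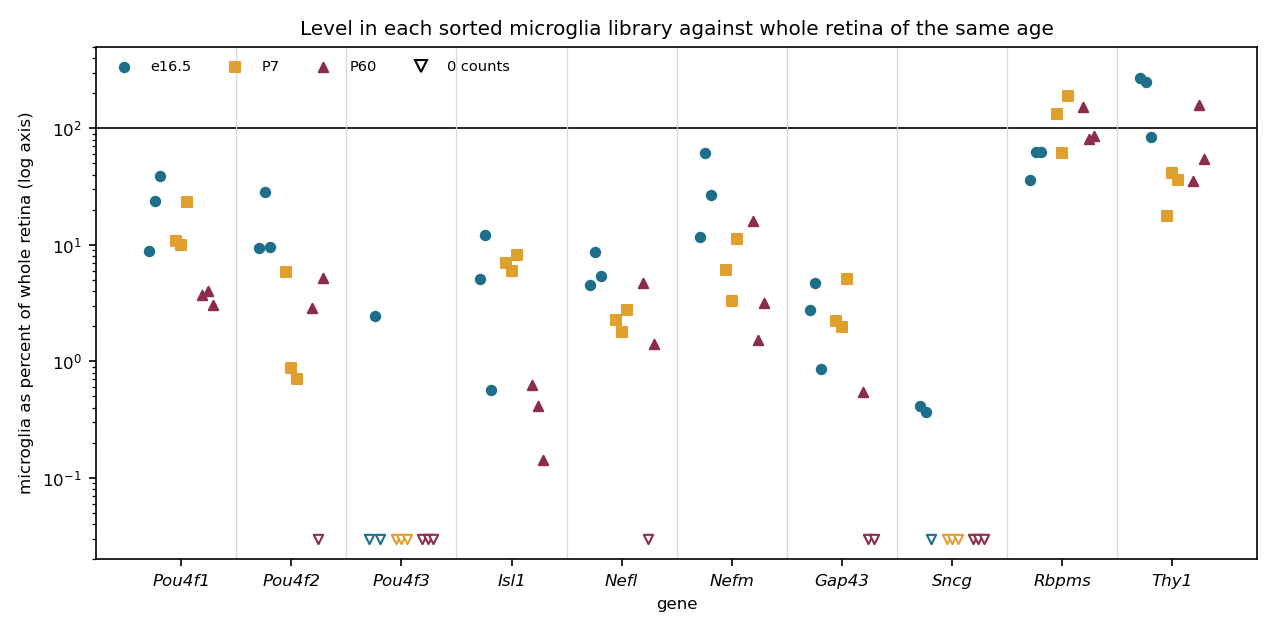
Level of each gene in each sorted microglia library as percent of the whole retina mean of the same age, on a log axis with a line at 100%, by age (circles e16.5, squares P7, triangles P60; open triangles 0 counts). At e16.5 the means run from 0.259% for Sncg to 202% for Thy1, and the Rbpms libraries run from 61.3% to 189% at P7 and P60.

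At P7 and P60 the same contrast has 1 retina library per age, and the level in each microglia library is given as percent of it. Sncg and Pou4f3 had 0 counts in all 6 microglia libraries of P7 and P60. With a floor of 3 counts over the 3 libraries of an age, Sncg was at least 623-fold lower than in retina at P7 and at least 410.1-fold lower at P60, and Pou4f3 at least 84.1-fold and 38.0-fold lower. Pou4f1 was at 10.7%, 10.04% and 23.4% of retina at P7 and at 3.74%, 4.02% and 3.02% at P60. Isl1 was at 7.02%, 5.94% and 8.17% at P7 and at 0.624%, 0.411% and 0.142% at P60. Both transcription factors thus took a smaller share of the retina level at P60 in every library. Pou4f2 was at 2.47% ± 2.92 at P7 and 2.70% ± 2.62 at P60 (SD, n = 3), resting on 0 to 7 counts in a library.

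Nefl was at 2.25%, 1.80% and 2.78% at P7 and at 4.67%, 0% and 1.40% at P60. Nefm was at 6.85% ± 4.01 and 6.92% ± 7.99, and Gap43 at 3.10% ± 1.74 at P7. At P60, Gap43 had 1 count in 3 libraries, or 0.167% of the retina level with an exact 95% interval from 0.00423% to 0.937%, which covers counting error only. Rbpms lay on both sides of the retina level by CPM, at 133%, 61.3% and 189% at P7 and 152%, 80.3% and 86.1% at P60, and by FPKM its means were 158% and 243%. Thy1 was at 17.8%, 41.1% and 35.8% at P7 and at 35.0%, 160% and 54.5% at P60, and so lay below the retina level in all 3 libraries at P7 and on both sides of it at P60 by CPM. By FPKM, Thy1 was at 17.7% of retina at P7 and 43.5% at P60, where the microglia libraries held 43.1, 161 and 63.5 FPKM, all below the 205 FPKM of retina. In the edgeR fit of all 14 libraries 8 of the 10 genes were lower in microglia at P7, where 11.6% of genes were lower and 9.5% higher, and 8 at P60, where 16.7% were lower and 11.6% higher. None of the 10 was higher. At both ages the exceptions were Rbpms (adjusted p = 0.733 and 0.997, edgeR) and Thy1 (adjusted p = 0.145 and 0.783, edgeR).

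Within microglia most of these genes were lower at later ages, and few of the differences passed the test. Sncg and Pou4f3 were too low to be tested, so that 8 of the 10 entered the fit of the 9 microglia libraries. The 3 age comparisons share libraries with each other and with the e16.5 contrast against retina. From e16.5 to P60, 3 of the 8 fell in edgeR, and none rose. Without P60 replicate 2 or without e16.5 replicate 2, 2 of them did. Of 16019 genes, 2.5% fell and 0.861% rose. Pou4f1 went from 31.7 ± 20.1 CPM to 5.23 ± 2.68 at P7 and 0.846 ± 0.120 at P60 (SD, n = 3), with every library of an age below those of the age before. Its log2 fold change from e16.5 to P60 was -5.19 (SE 0.80, adjusted p = 0.00646, edgeR). Gap43 had 622 counts over the 3 e16.5 libraries, 114 at P7 and 1 at P60, and passed from e16.5 to P60 (adjusted p = 0.00685, edgeR). Its P60 level was 0.195% of that at e16.5, with an exact 95% counting interval from 0.00492% to 1.09%. Isl1 was at 7.62, 6.45 and 8.87 CPM at P7 and 0.391, 0.258 and 0.0890 CPM at P60, and passed from e16.5 to P60 (-5.46, SE 1.18, adjusted p = 0.0292, edgeR). That call of Isl1 is lost without any 1 of the 6 e16.5 and P60 libraries except e16.5 replicate 3, with adjusted p from 0.0509 to 0.102 in edgeR.

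From P7 to P60, only Gap43 passed as lower, where 1.09% of genes did (adjusted p = 0.0430, edgeR). Its P60 level was 1.03% of that at P7, with an exact 95% counting interval from 0.0258% to 5.84%. It did not pass with the replicate number as a block, which pairs the libraries of these ages (-6.17, adjusted p = 0.0521, edgeR), where none of the 8 did. It also missed the threshold without any 1 of the 6 libraries, with adjusted p from 0.0528 without P60 replicate 1 to 0.151 without P7 replicate 3. Isl1 was close to the threshold there (-4.88, SE 1.15, adjusted p = 0.0663, edgeR). From e16.5 to P7 none of the 8 passed, where 0.2% of genes did in either direction, 4 had an unadjusted p under 0.05, and DESeq2 called 3, Pou4f1, Pou4f2 and Nefm. Pou4f2 went from 63, 202 and 77 counts to 7, 1 and 1 (-5.14, SE 1.37, adjusted p = 0.248, edgeR). Nefm went from 12.7, 66.9 and 29.3 CPM to 3.16, 1.70 and 5.80 CPM (-3.37, SE 0.97, adjusted p = 0.306, edgeR). Neither gene overlapped between these ages.

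Rbpms did not pass between any microglial ages, at 30.7 ± 8.68, 26.4 ± 13.2 and 16.2 ± 6.11 CPM, with overlapping libraries throughout and a log2 fold change of -0.90 from e16.5 to P60 (SE 0.54, adjusted p = 0.374, edgeR). Its highest P7 library by CPM, replicate 3, also held the most of the pericyte gene Rgs5, at 67.0 CPM. By FPKM replicate 2 was higher at P7, at 32.9 against 30.4. At P60 its highest library by CPM, replicate 1 at 23.3 CPM, held the least Rgs5, 0.0978 CPM. The 8 endothelial and pericyte markers summed to 20.9 to 138 CPM over the 9 libraries, with the 20.9 CPM in that P60 replicate 1. Their part in the Rbpms level was not tested. Nefl was at 28.6, 0 and 8.54 CPM in the P60 libraries and overlapped with P7. Thy1 was at 7.95, 18.3 and 16.0 CPM at P7 and 33.4, 152 and 52.0 CPM at P60, with no overlap, but did not pass against P7 (2.53, SE 0.67, adjusted p = 0.0975, edgeR) or e16.5 (2.23, SE 0.67, adjusted p = 0.0949, edgeR). DESeq2 called both (adjusted p = 0.00316 and 0.00868). The highest Thy1 library, P60 replicate 2, was also the one with the most rod RNA, and it held 0 counts of Nefl. It was the highest P60 library for 6 of the 12 further ganglion cell markers above 0, against 4 and 2 for replicates 1 and 3. Among those 6 were Nefh at 2.15 CPM and Chrna6 at 2.32 CPM. Of 8 T lymphocyte markers 7 were measured, and they summed to 13.0, 44.9 and 32.3 CPM in the P60 microglia libraries, 8.35 to 18.7 CPM at P7 and 10.7 to 11.7 CPM at e16.5. Of the CD3 chain genes, which define these cells, Cd3e was at 0, 0.344 and 4.45 CPM at P60. Cd3d was at 2.25, 9.96 and 10.1 CPM, and Cd3g at 0.196, 0.859 and 0.267 CPM. Cd4 made 27.1 of the 44.9 CPM in P60 replicate 2. The part of other cells in the Thy1 level was not tested.

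The change with age in microglia was also set against that in whole retina, in contrasts added after the data had been seen (edgeR, 14 libraries). None of the 10 genes differed in its change from e16.5 to P7, P7 to P60 or e16.5 to P60, where 0.19%, 0.122% and 2.66% of genes did, and 1, 2 and 3 of the 10 had an unadjusted p under 0.05. The lowest adjusted p was that of Pou4f1 from e16.5 to P60, at 0.117. No other tool was run for these contrasts.

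Genes of the 5 lists were also read in microglia, where 30.1% of all genes were lower than in e16.5 retina and 33.1% higher. Of the 16 fate transcription factors, 10 were lower in e16.5 microglia than in retina and none higher in edgeR, among them Atoh7 at 10.04 against 571 CPM (adjusted p = 0.000252). Of 15 further ganglion cell markers tested, 10 were lower, such as Tubb3 at 5.72 against 1777 CPM (adjusted p = 4.45e-05), and 1 was higher, the junction protein gene Jam2 at 94.6 against 66.2 CPM (adjusted p = 0.0355). Of 21 axon genes 12 were lower and 3 higher in edgeR. Those higher were guidance receptor genes, Plxna4 at 177 against 6.67 CPM, Nrp2 at 206 against 17.0 CPM and Nrp1 at 111 against 53.0 CPM. Of 14 neurotrophin and cell death genes 6 were lower and 2 higher, Bcl2l11, which encodes the pro-apoptotic protein Bim, at 179 against 27.3 CPM and Ntrk3 at 14.6 against 6.30 CPM. Of the 5 neurofilament and synuclein relatives 4 were lower. The median log2 fold changes of the 5 lists were -2.44, -3.73, -1.49, -1.93 and -4.70 in this order, against -0.13 for all genes.

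Within microglia, 4 of 13 fate factors tested fell from e16.5 to P60 in edgeR, 2 of 11 further markers, 1 of 21 axon genes, 1 of 12 neurotrophin and death genes and 1 of 3 relatives, and none rose, where 2.5% of all genes fell and 0.861% rose. Sox11 went from 151 to 1.67 CPM (adjusted p = 0.000337), and Atoh7 from 10.04 CPM to 0 counts in all 3 libraries (adjusted p = 0.0242). Dcx went from 73.3 to 1.72 CPM (adjusted p = 0.00411), and Ina from 65.9 to 0.376 CPM (adjusted p = 0.00562, all edgeR). The lists' median log2 fold changes were -1.78, -1.46, -0.96, 0.25 and -5.81, against 0.06 for all genes. From e16.5 to P7 Sox11 alone of the 5 lists fell (151 to 15.4 CPM, adjusted p = 0.0171, edgeR). From P7 to P60 Sox11 fell again (adjusted p = 0.0134) and Nrp2 fell from 314 to 104 CPM (adjusted p = 0.0295, both edgeR).

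The deposited counts and FPKM together give the transcript length that the authors' quantification assigned to a gene in each library, and for Thy1 that length differed between microglia and retina. The relation was set on 355 genes with 1 annotated transcript, of which 93.2% to 93.8% per library came out within 0.5% of their annotated length. Nefl came out at 3380 bases, Pou4f2 at 3204 and Sncg at 852 in every library with at least 20 counts, the lengths of their only transcripts. Thy1 came out at 636 to 698 bases in the 5 retina libraries and at 950 to 1192 bases in the 9 microglia libraries, with no overlap. In 4 of the 9 it equalled 1192 bases, the length of Thy1-202 (chr9:44045184-44046375), a single-exon transcript annotated as a retained intron. P60 replicate 2, which held the most Thy1 counts, 1770, was one of these. None of the 5 retina libraries came out at that length. An average over several transcripts could give the intermediate lengths, and reads were not seen here.

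Pou4f1 came out at 1704 to 2075 bases in retina and at 2410 to 4445 bases in the 6 microglia libraries with at least 20 counts, 3 of them at 4445 bases, its protein-coding transcript. The other annotated transcript, of 799 bases, is a processed transcript without a reading frame. Gap43 came out at 1420 bases, its protein-coding transcript, in 5 of 6 microglia libraries and at 1245 to 1335 bases in retina. Isl1 spread from 771 to 2258 bases in microglia and from 1516 to 1693 in retina. FPKM depends on this length, and whether the authors' fold changes do was not given in the sources used here. Their deposited log2 fold changes in e16.5 microglia against retina were -3.12 for Pou4f1 and 0.20 for Thy1. The counts alone gave -1.70 and 1.38 in edgeR. The cause of that difference was not tested. By FPKM, Pou4f1 was at 11.5% of retina rather than 23.9%. In the authors' deposited table an adjusted p under 0.05 in this comparison stands for 7 of the 10 genes, with 9 at P7 and 8 at P60, where the shares of all genes with an adjusted p in that table are 50.3%, 31.5% and 38.1%.

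**Figure D4:**
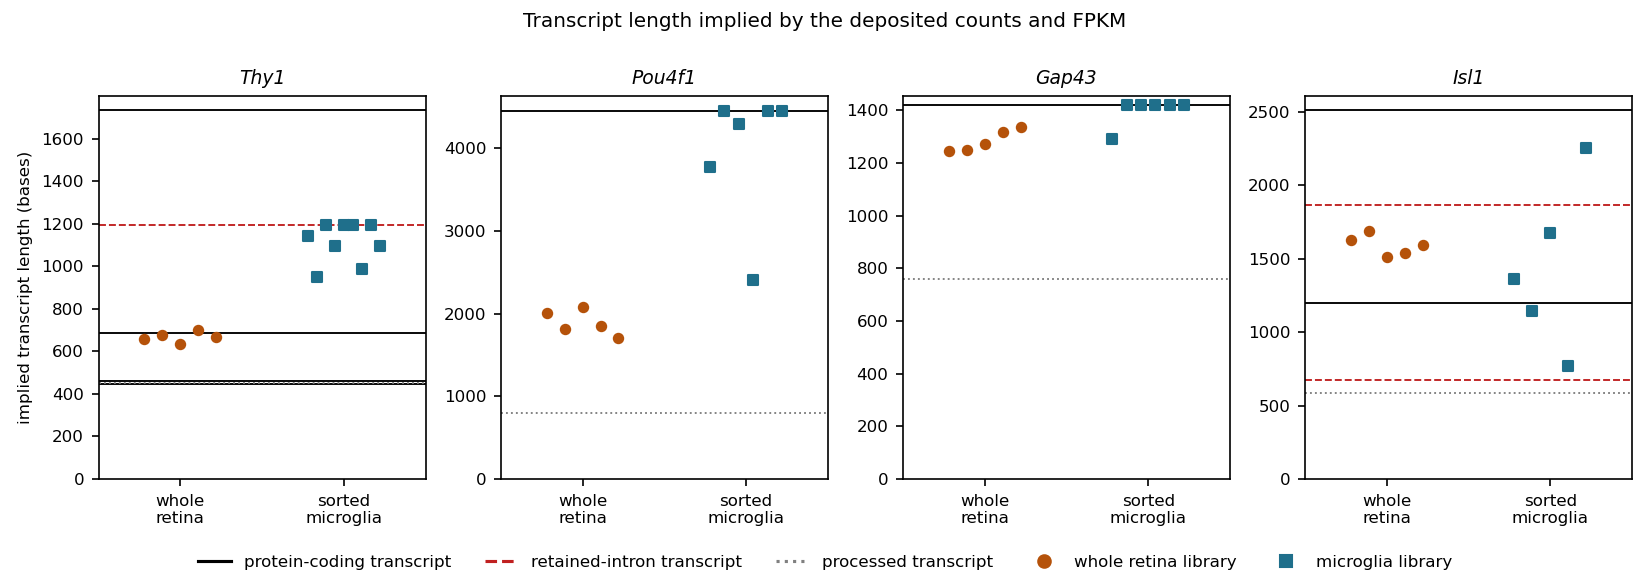
Transcript length in bases implied by the deposited counts and FPKM in each library with at least 20 counts (circles whole retina, squares sorted microglia), with lines at the annotated transcripts. Thy1 in microglia reaches the retained-intron transcript of 1192 bases, while its retina libraries lie between 636 and 698 bases.

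Over the 6 group means of log2 CPM, the genes whose pattern was most like that of Pou4f2 among 10263 genes were Scn9a, a voltage-gated sodium channel gene (r = 0.9985), Amot, Ift140, Sfrp1 and 4930452B06Rik. Scn9a was at 35.3 CPM in e16.5 retina and 8.93 CPM in e16.5 microglia. Of the other 9 genes Nefm was closest to Pou4f2, at r = 0.992, ahead of its paralogue Pou4f1 at 0.957, and Thy1 stood at -0.34. Most like Nefl among 11748 genes were Nrn1, which encodes the neurite-promoting protein neuritin (r = 0.9994), Arl6ip5, Gprc5b, Plekha7 and Thrb. Nrn1 dipped at P7 in retina as Nefl did, at 42.0, 17.4 and 35.4 CPM. Sncg was closest to Nefl of the 10 genes, at r = 0.982. These are descriptions over 6 means that come from the same libraries and scaling.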

How the data were processed

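RNA-seq of 9 sorted microglia and 5 whole retina libraries was read from 1 table. The counts deposited by the authors are whole numbers; the submitters' processing notes list Salmon 0.9.1, DESeq2 1.20.0 and GRCm38.p6 without roles, so they were treated as estimated counts. FPKM, p-values adjusted by the authors and their log2 fold changes were also deposited, per the file headers. The test across genes was edgeR 4.0.16 (quasi-likelihood, TMM, filterByExpr, adjusted p under 0.05) in R 4.3.3, DESeq2 1.42.0 being an alternative. The analysis was tested on simulated data. Standard errors come from the F statistics. CPM were scaled over all 14 libraries. Whole retina at P7 and P60, with 1 library each, was compared by log2 ratio (0.1 CPM added, 2-fold). Implied lengths fit counts over FPKM to annotated length per library and were added after the data were seen. Pathway genes are named by up to 3 per direction with at least 10 CPM, and genes most like Pou4f2 and Nefl by the 5 highest Pearson r. The members and lists were chosen with earlier results of these data known. Intervals and floors cover counting error only. No 2 libraries were identical. Deviations from group means correlated at 0.117 to 0.273 between same-numbered P7 and P60 microglia libraries, against -0.190 to -0.0111 for other numbers. Same-numbered libraries also correlated more than others between e16.5 and each later age of microglia, but not between microglia and retina. The comparisons were therefore also fitted with the replicate number as a block. Proteins were not analysed here.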

Additional observations from a re-analysis of the deposited data

How the results depend on the processing

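Between microglia and retina at e16.5, 7 to 9 of the 10 genes were called under every alternative run. The count includes Thy1, as higher in microglia, in DESeq2 (9 called), with a 5 CPM filter (8 called) and without microglia replicate 3. Between P7 and e16.5 microglia, 32 genes passed, against 328 with DESeq2, 58 with a 5 CPM filter, 100 with all 14 libraries and 143 with only the 2 ages, and 0 to 16 without 1 library; of the ganglion cell genes 0 passed, against 3, 0, 1 and 1 in the same order. Between P60 and P7, 217 passed, against 1249 with DESeq2, 599 with all 14 libraries and 82 with only the 2 ages, and 41 to 217 without 1 library; 1 ganglion cell gene passed, against 4, 3 and 0, 0 by library totals and 0 to 0 without 1 library. Between P60 and e16.5, 538 passed, against 1902, 1177 and 227, and 174 to 530 without 1 library; 3 ganglion cell genes passed, against 6 with DESeq2, 5 with all 14 libraries and 2 to 3 without 1 library. In whole retina from P7 to P60, 2 rather than 1 were 2-fold lower by library totals. The cause of these differences was not tested.

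Among single values that passed in no setting, the sign turned without 1 library for Isl1 from e16.5 to P7 (-0.58, from -1.12 to 0.47), Rbpms at the same step (-0.24, from -0.65 to 0.0779), and Pou4f2 (-0.33, from -1.23 to 1.19) and Nefl (0.61, from -0.91 to 1.19) from P7 to P60, all as log2 fold changes. Library totals alone move the median of all genes by -0.38 against retina and by 0.22 and 0.19 in the P60 comparisons of microglia.

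Replicate numbers are shared across groups. Deviations of same-numbered libraries correlated at 0.0627 to 0.243 for e16.5 and P7 microglia, 0.0536 to 0.168 for e16.5 and P60 and -0.00208 to 0.0291 for microglia and retina, so there only a number links them. With the replicate block, 9475 genes passed against retina, with 8 of the 10; 44 passed from e16.5 to P7, with 0; 757 from e16.5 to P60, with 3; and from P7 to P60 367 passed, with 0, Gap43 having an adjusted p of 0.0521 in edgeR. At that step the call of no other of the 8 tested genes changed. Under the block Isl1 from e16.5 to P7 was at 0.10. Depth limits P60 microglia most, where 3 counts are 0.258 to 0.293 CPM in a library.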
